A study of Mus musculus with 2 samples.

Results

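Transcripts of 10 genes of the mouse MHC class II pathway were followed across the cell types of the infarcted heart: H2-Aa, H2-Ab1, H2-Eb1, Cd74, Ciita, H2-DMa, H2-DMb1, H2-DMb2, H2-Oa and H2-Ob. They were taken by symbol, a rule that uses no measured value, and all 10 of 10 were found among the 32287 features of both libraries. The data were droplet single-cell transcriptomes of the non-cardiomyocyte cells of the infarct zone, in which each captured molecule is counted once by its unique molecular identifier (UMI). The sort gave 2 libraries, 1 per fraction. GFPhi held the cells sorted as bright for GFP, also labelled GFP⁺, and GFPlo those sorted as dim, also labelled GFP⁻. Both came from p16-2A-CreER;R26-mTmG mice after myocardial infarction (MI), gavaged with tamoxifen on day 5 and harvested on day 7, so both fractions carry the Cre driver and the reporter and had the injury and the drug. Cre is driven from the p16 gene, and a recombined cell and its descendants exchange membrane Tomato for membrane GFP, so that GFP marks past p16 promoter activity and not the present level of p16. The labels do not say how many mice went into each library. With 1 library per fraction there is no replicate and no test of GFPhi against GFPlo: every interval below is a 95% interval for counting error only.

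MHC class II molecules present peptides from engulfed proteins to helper T cells. The alpha and beta chains pair in the endoplasmic reticulum with the invariant chain, which blocks the groove and takes the complex to endosomes, where proteases cut the invariant chain down to a short stub and the DM heterodimer exchanges that stub for antigen peptide, while the DO heterodimer restrains DM. Transcription of these genes depends on the transactivator CIITA, which binds no DNA itself but docks on factors assembled at a conserved promoter module, and it is high in dendritic cells and B cells and inducible by interferon gamma in macrophages and in many non-immune cells.

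The promoter module that recruits CIITA is known for an X box and a Y box at a fixed distance from each other, and 4 promoters are shown because they carry its letters. They come from RefSeq promoters of GRCm38.p6, each a stretch of 69 bases upstream of the start, read 5′ to 3′ on the gene's own strand. Capitals mark the matches searched on both strands: TGATTGG (an inverted CCAAT box, the Y box), the letters AAC and ATGATG with 2 free bases between them (the end of the X box with the X2 box) and TGACGTCA (a cyclic AMP response element, the X2 position of H2-Aa). No match overlapped another. The start RefSeq gives for H2-DMb2 lies inside the GENCODE span of that gene.
H2-Aa, chr17:34287855-34287923, minus strand: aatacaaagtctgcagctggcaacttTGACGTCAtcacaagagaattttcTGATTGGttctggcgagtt
H2-Eb1, chr17:34305756-34305824, plus strand: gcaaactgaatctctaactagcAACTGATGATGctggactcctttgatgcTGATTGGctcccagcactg
H2-DMb2, chr17:34145107-34145175, plus strand: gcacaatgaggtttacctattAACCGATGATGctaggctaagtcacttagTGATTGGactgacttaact
H2-Ob, chr17:34238796-34238864, plus strand: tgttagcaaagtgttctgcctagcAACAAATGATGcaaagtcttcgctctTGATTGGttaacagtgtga

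The table of promoters matched 7 of the 10 genes with 8 windows, and H2-Ab1, Ciita and Cd74 had no entry. TGATTGG was in 6 of the 8 windows and in 2375 of 32851 promoters (7.23%). The AAC and ATGATG match was in 4 of 8 (H2-Eb1, H2-DMb1, H2-DMb2 and H2-Ob) and in 39 of all promoters (0.119%). The pair of them was in the same 4 windows and in 9 of all promoters (0.0274%). TGACGTCA was in the H2-Aa window alone of these and in 508 promoters (1.55%). The window of H2-DMb1 reaches an annotated exon and is not printed. Neither window of H2-DMa held any of the 3. The motifs were written down after the sequences had been seen, and a match is a description of letters, not of a bound site.

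In the mm10 annotation (GENCODE vM21) 8 of the 10 genes lie within 224.3 kb of chromosome 17. From the proximal end these are H2-Oa (34092340–34095234), H2-DMa (34119541–34139101), H2-DMb2 (34143307–34151555), H2-DMb1 (34153072–34160230), H2-Ob (34238903–34254414), H2-Ab1 (34257689–34269419), H2-Aa (34282744–34287823) and H2-Eb1 (34305867–34316674). All of these lie on the plus strand except H2-Aa, which lies on the minus strand. Ciita is on chromosome 16 (10480059–10528418, plus strand) and Cd74 on chromosome 18 (60803848–60812652, plus strand). H2-Eb1 overlaps the antisense gene Gm20513, Ciita overlaps Dexi, H2-DMa overlaps Brd2, CR974462.4 and Gm20493, and H2-Oa overlaps BC051537, each on the opposite strand. The sources used here do not say whether counting used the strand, so reads of these pairs could not be told apart. On the same strand, H2-DMa overlaps CR974462.3 and Cd74 overlaps Mir5107, and strand would not separate these. H2-DMb1 and H2-DMb2 are related genes of similar sequence. Their longest coding transcripts matched at 94.59% of 1219 aligned bases, and their last 500 bases, where the 3' tags of this kit fall, at 89.22% of 334 aligned bases, so how reads were split between them is uncertain.

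Cells with 300 or more genes, 500 or more UMIs and a mitochondrial share of up to 20% were kept, which left 10125 of 10430 barcodes in GFPhi and 11959 of 12344 in GFPlo, with medians of 6899 and 7712 UMIs per cell. Cells were sorted into 14 lineages by lists of 8 markers that hold none of the 10 genes, at 3 or more markers seen and a lead of 2 over every other list. This placed 9432 cells of GFPhi and 10155 of GFPlo, left 506 and 1003 ungated, and set aside 187 and 801 others. Those set aside carried 3 or more markers of 2 lineages without that lead. A cell with the lead stayed in its class even if it carried 3 or more markers of another list. Levels are given as CPM, the UMIs of a gene scaled to a total of 1000000 UMIs in the class. The deposited libraries share 94 barcodes, of which 92 were kept in both, 81 of them as macrophages of GFPhi and none as macrophages of GFPlo. Leaving these barcodes out moved none of the 8 summary values that were recomputed by 1.5 times or more.

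Class II transcripts were far more abundant in GFPhi than in GFPlo, and most of those in GFPhi lay in macrophages. The 10 genes together took 553414 UMIs in GFPhi (0.608% of all UMIs) and 54687 in GFPlo (0.0523%). H2-Aa, the alpha chain of the I-A molecule, was at 1417 CPM in GFPhi and 112.9 CPM in GFPlo, a 12.5-fold difference (12.3–12.8). Cd74, the invariant chain, was at 2419 CPM in GFPhi and 184.8 CPM in GFPlo. At least 10 CPM in a fraction was required to call a gene measured, and at least 1.5-fold to call it higher or lower. Of the 7 genes measured, 7 of 7 were higher in GFPhi, with a median ratio of 10.4. For Ciita, which reached 10 CPM in GFPhi alone, that call was fixed by the limit. Of all 9213 genes measured, 15.6% were higher and 31.2% lower, with a median ratio of 0.832. Median-of-ratios scaling shifts the whole table by −0.31 on the log2 scale, and the count of 7 higher genes was the same under it. Ciita was the least different of the 7, at 12.41 CPM in GFPhi and 2.496 CPM in GFPlo, a ratio of 4.97.

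Macrophages made up 8260 of the GFPhi cells and 65 of the GFPlo cells, and they held 95.2% of the class II UMIs of GFPhi and 12.3% of those of GFPlo. Over the gated cells that were neither macrophages nor monocytes, H2-Aa was at 111.9 CPM in GFPhi and 73.16 CPM in GFPlo, and Cd74 at 182.0 and 116.9 CPM. There 4 of 6 measured genes were still called higher in GFPhi (9.72% of all genes) and 0 lower (8.87%), at a median ratio of 1.52 against 0.949 over all genes. H2-DMa and H2-DMb1 reached 10 CPM in GFPhi alone, and of the other 4 genes 3 were higher. In GFPlo no class held a majority of the class II UMIs. Type 1 conventional dendritic cells held 18.9% of them with 30 cells, fibroblasts 14.7% with 7583 cells, macrophages 12.3% with 65 cells and B cells 6.94% with 65 cells. A further 17% sat in the 801 cells with markers of 2 lineages and 12.6% in the 1003 ungated cells.

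**Figure D1:**
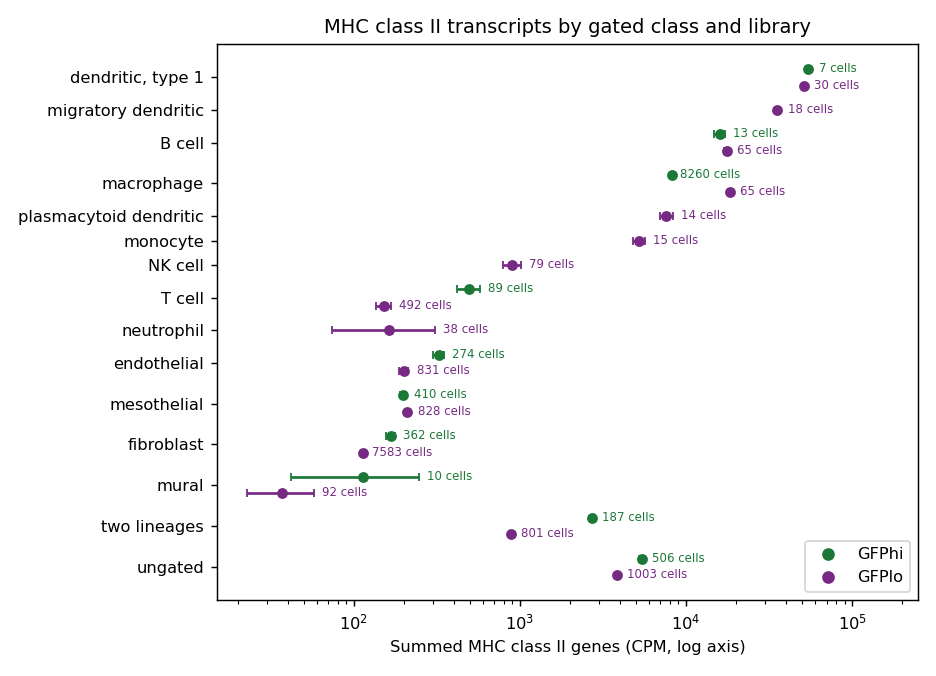
Summed CPM of the 10 genes in classes with at least 5 cells (log axis), with the number of cells beside each point, GFPhi above GFPlo, and 95% counting intervals. Type 2 conventional dendritic cells, at 62184 CPM over 5 cells of GFPlo, are not drawn. Type 1 dendritic cells sit at 54367 CPM in GFPhi and 51317 CPM in GFPlo, above B cells and macrophages in both, and mural cells of GFPlo sit lowest, at 37.1 CPM.

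Ordered by the summed level of the 10 genes, conventional dendritic cells came first, then migratory dendritic cells, then B cells and macrophages, then plasmacytoid dendritic cells and monocytes, and then every other class. Type 2 conventional dendritic cells reached 62023 CPM in GFPhi (3 cells) and 62184 CPM in GFPlo (5 cells). Type 1 conventional dendritic cells, which specialise in cross-presentation, reached 54367 CPM (7 cells) and 51317 CPM (30 cells). These are too few cells in GFPhi for an order between the dendritic types to be read there. Migratory dendritic cells, gated in GFPlo only, stood at 35392 CPM over 18 cells. B cells stood at 15957 CPM in GFPhi (13 cells) and 17570 CPM in GFPlo (65 cells), and macrophages at 8191 CPM in GFPhi and 18292 CPM in GFPlo. B cells thus stood above macrophages in GFPhi, while in GFPlo the counting intervals of these classes overlapped (17016–18138 and 17858–18734 CPM).

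Plasmacytoid dendritic cells were at 8169 CPM in GFPhi over 2 cells and 7616 CPM in GFPlo over 14 cells. The monocyte class of GFPlo was at 5207 CPM over 15 cells, but 1 cell held 66.2% of its class II UMIs. Likewise 1 of 79 NK cells of GFPlo held 93.75% of the UMIs behind the 899 CPM of that class. Neutrophils of GFPlo, at 163 CPM over 38 cells, and mural cells of GFPlo, at 37.1 CPM over 92 cells, mark the low end. T cells, which in mice are not known to make class II, were at 493 CPM in GFPhi (89 cells) and 152 CPM in GFPlo (492 cells).

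The T cells were taken as the background against which a share of cells with a UMI is read, since free RNA can enter any droplet. Per 100 H2-Aa UMIs, H2-DMa stood at 58.2 in GFPlo T cells (38.2–87.7), against 5.64 in GFPlo macrophages. In GFPhi it stood at 26.5 (11.2–56.4) in T cells, against 7.80 in macrophages. The T cell share is thus a background of uncertain make-up. The part of free RNA in the class II UMIs of T cells was not tested. Of these UMIs, 1 of 89 T cells held 26.25% in GFPhi and 1 of 492 held 32.8% in GFPlo. Each cell was thinned to 1000 UMIs. At that depth 57.6% of GFPhi macrophages (56.5–58.7) and 64.5% of GFPlo macrophages carried at least 1 class II UMI. The T cells reached 47.1% in GFPhi, at a median depth of 1786 UMIs before thinning, and 7.93% in GFPlo, at 3100 UMIs. For H2-Aa alone the thinned share was 33.5% of GFPhi macrophages, at a median of 6781 UMIs, and 14.1% of GFPhi T cells, a gap larger than the counting intervals (32.5–34.6 and 7.51–23.4). Without thinning, 55.1% of GFPhi macrophages had an H2-Aa UMI (54.0–56.2). All 30 type 1 dendritic cells of GFPlo had class II UMIs, as did all 65 B cells.

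Among the classical chains and the invariant chain, H2-Aa, H2-Ab1 (the I-A beta chain) and H2-Eb1 (the I-E beta chain) were highest in conventional dendritic cells. In type 1 dendritic cells H2-Aa was at 12579 CPM in GFPhi and 11736 CPM in GFPlo, and Cd74 at 18205 and 16140 CPM. In B cells H2-Aa was at 2652 CPM in GFPhi and 3412 CPM in GFPlo, and Cd74 at 8477 and 8310 CPM. Macrophages stood lowest of the 3 in GFPhi and between the other classes in GFPlo for H2-Aa. In macrophages H2-Aa was at 1916 CPM in GFPhi and 4370 CPM in GFPlo, and Cd74 at 3263 and 6180 CPM. Within GFPlo, the 7 of the 10 genes that reached 10 CPM in both classes were all higher in type 1 dendritic cells than in macrophages (24.1% of all genes measured and 23.1% of those at 10 CPM in both, median ratio over all genes 0.925). H2-DMb2, H2-Oa and H2-Ob reached it in the dendritic cells alone, which fixed their calls. The chains differed at 2.69-fold for H2-Aa, 3.50-fold for H2-Ab1, 2.58-fold for H2-Eb1 and 2.61-fold for Cd74. Against macrophages, B cells of GFPlo had 4 genes higher and 2 lower of 10 (28.9% and 37.7% of all genes), but of the 7 genes at 10 CPM in both 1 was higher. The invariant chain was at 1.34-fold in B cells over macrophages (1.26–1.43), while H2-Eb1 was at 0.645-fold (0.587–0.709).

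Ciita, the transactivator that switches the other genes on, was sparse in every class. It was at 180 CPM in GFPhi and 174 CPM in GFPlo in type 1 dendritic cells, and at 15.3 and 32.5 CPM in macrophages. B cells had 0 UMIs in GFPhi, where 13 cells allow a level of up to 68.0 CPM, and 60.2 CPM in GFPlo. The ratio of type 1 dendritic cells to macrophages in GFPlo was 5.34 (2.71–11.3), on 35 and 12 UMIs. In GFPhi macrophages its level ran against the depth of the cell. It was 75.4 CPM in cells of 500 to 1500 UMIs, 35.5 CPM up to 3000, 24.6 CPM up to 6000, 16.5 CPM up to 12000 and 6.5 CPM above. H2-Aa took another course over the same 5 bins, at 906, 1625, 3172, 2103 and 1131 CPM. In the same bins the share of mitochondrial UMIs went down from 8.90% to 2.08%, and the nuclear RNA Malat1 from 22630 to 3686 CPM. The shallow cells thus carried more of both, and their part in the Ciita level was not tested.

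The peptide editors separated the antigen-presenting cells from each other. H2-DMa and H2-DMb1 form the DM molecule that loads peptide, and H2-DMb2 is a second DM beta gene. H2-Oa and H2-Ob form DO, the brake on DM that in mice is known from B cells and dendritic cells. H2-DMb2 was at 249 CPM in GFPhi and 398 CPM in GFPlo in B cells, at 111 and 109 CPM in type 1 dendritic cells, and at 1.77 and 5.42 CPM in macrophages. H2-DMb1 had another order, highest in type 1 dendritic cells. It stood at 159 CPM in GFPhi and 83.3 CPM in GFPlo in B cells, 995 and 982 CPM in type 1 dendritic cells, and 124 and 301 CPM in macrophages.

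Within GFPlo, B cells over type 1 dendritic cells gave 1 gene higher and 7 lower of 10 (32.2% and 30.8% of all genes). The 1 higher was H2-DMb2, at 3.65-fold (2.26–6.12), while H2-DMb1 was at 0.0849-fold (0.0493–0.138). Over macrophages the same B cells were at 73.5-fold for H2-DMb2 (19.7–616, on 86 and 2 UMIs) and 0.277-fold for H2-DMb1 (0.158–0.458). Since the copies could exchange reads, the values of H2-DMb2 and H2-DMb1 are uncertain. H2-Eb2, a further class II beta gene outside the 10, had 12 UMIs in these B cells and 0 in the type 1 dendritic cells. B cells of GFPlo held 39.5% of the 218 H2-DMb2 UMIs of that library with 65 cells.

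The DO chains stood far above macrophages in type 1 dendritic cells and B cells, but plasmacytoid dendritic cells of GFPlo had 0 UMIs of both. H2-Oa was at 166 CPM in GFPhi and 144 CPM in GFPlo in type 1 dendritic cells, and at 90.7 and 144 CPM in B cells. H2-Ob was at 55.3 and 203 CPM in type 1 dendritic cells and at 136 and 171 CPM in B cells. Macrophages of GFPhi were at 0.560 CPM for H2-Oa and 1.59 CPM for H2-Ob, and macrophages of GFPlo had 0 UMIs of either, which allows up to 8.13 CPM. Between B cells and type 1 dendritic cells of GFPlo neither chain differed beyond counting error, with ratios of 0.998 (0.582–1.72) for H2-Oa and 0.842 (0.525–1.35) for H2-Ob. Of the DO chains H2-Oa alone was seen in T cells, at 21.6 CPM in GFPhi (7 UMIs) and 6.27 CPM in GFPlo (15 UMIs), where H2-Ob had 0 UMIs in both.

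**Figure D2:**
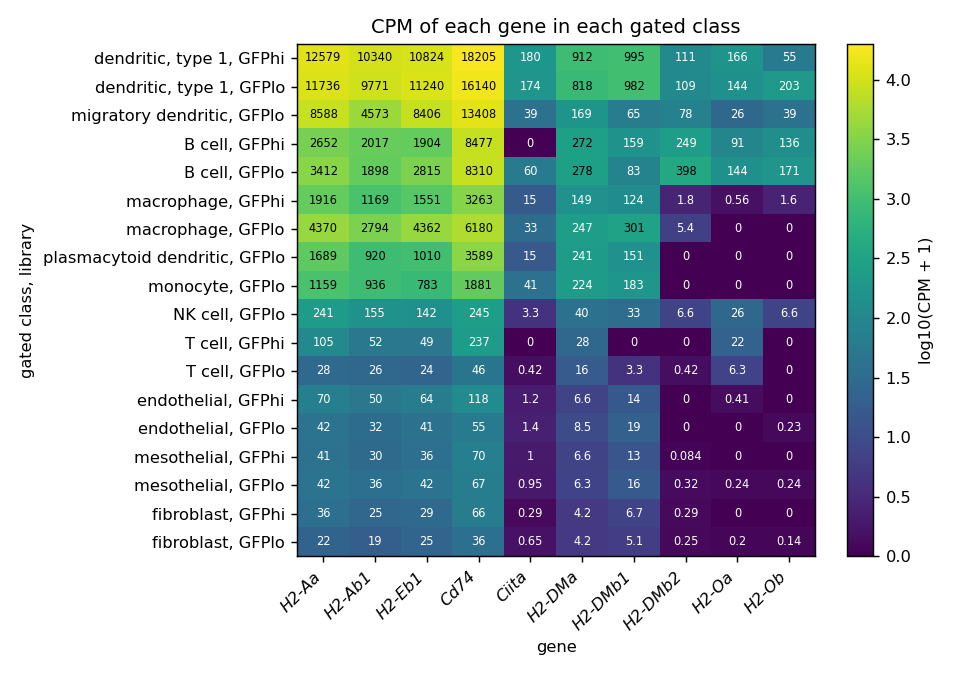
Level of each of the 10 genes (columns of the map) in classes of each library (rows), as log10 of CPM + 1 in colour and CPM in print. H2-DMb2, H2-Oa and H2-Ob stand out in B cells and type 1 dendritic cells, at 398, 144 and 171 CPM in B cells of GFPlo, and reach at most 5.42 CPM in macrophages.

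Migratory dendritic cells had less of most class II genes than type 1 dendritic cells, and a few of them carried much of it. In 3 of 18 cells sat 50% of their class II UMIs, and the median cell had 167 class II UMIs per 10000, against 525 in type 1 dendritic cells. Over type 1 dendritic cells of GFPlo, 0 genes were higher and 6 of 10 lower in them (26.6% and 38.9% of all genes). H2-Aa was at 0.732-fold (0.670–0.798) and Cd74 at 0.831-fold (0.774–0.891), short of the 1.5-fold limit, while H2-Ab1 was at 0.468-fold (0.417–0.525). H2-DMb1 was at 0.0661-fold (0.0212–0.157), on 5 and 198 UMIs, and H2-DMa at 0.206-fold (0.108–0.363), but H2-DMb2 at 0.714-fold (0.237–1.82). These ratios of summed UMIs carry no test between the genes. Ciita was at 0.225-fold (0.0442–0.712), on 3 and 35 UMIs. In the other lists of the pathway, all 6 of the invariant chain and antigen proteases were higher in migratory cells, with Ifi30, a thiol reductase of antigen compartments, at 3.51-fold (2.83–4.37), and 4 of 5 measured costimulation genes were higher, with Cd274, which encodes PD-L1, at 20.1-fold (6.07–104). The ubiquitin ligase gene March1, which takes class II off the surface, had 0 UMIs in migratory cells, which allows up to 39.0 CPM, and 25 in type 1 dendritic cells (124 CPM). Plasmacytoid cells of GFPlo were lower than type 1 dendritic cells in all 7 genes that reached 10 CPM in both (27.8% of all genes measured and 16.7% of those at 10 CPM in both), at 0.144-fold for H2-Aa and 0.295-fold for H2-DMa, with 0 UMIs of H2-DMb2, H2-Oa and H2-Ob.

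Within the macrophages of GFPhi the class II genes were spread over a wide range. Counted per 10000 UMIs of the cell, 10% of cells had 0.818 class II UMIs or fewer, the median was 7.37 and 10% had 353 or more. These upper 826 cells held 62.9% of all class II UMIs of the class, and 718 cells (8.69%) had none. The 65 macrophages of GFPlo had a median of 72.7. Above 100 per 10000 UMIs stood 22.4% of GFPhi macrophages and 46.2% of GFPlo macrophages.

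The genes were seen together in the same cells. Among 7981 GFPhi macrophages thinned to 1000 UMIs, H2-Aa was seen in 2677 and not in 5304. In the cells with H2-Aa against those without, H2-Ab1 was seen in 74.3% against 9.13%, H2-Eb1 in 73.9% against 7.82% and Cd74 in 88.1% against 22.1%. Ciita was seen in 5.19% (4.38–6.10) against 0.452% (0.290–0.673). The DM genes followed at lower shares, with H2-DMa in 25.2% against 6.94% and H2-DMb1 in 23.7% against 4.22%. These are shares of cells within 1 library and carry no replicate.

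**Figure D3:**
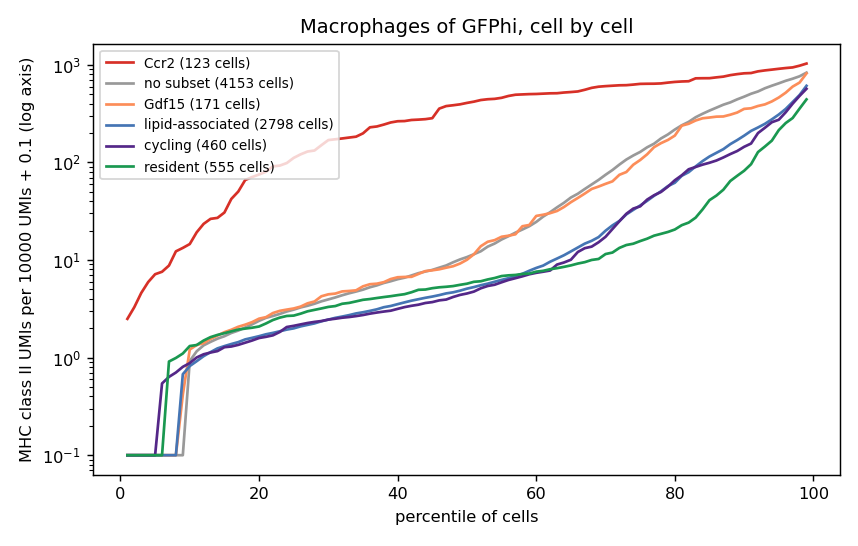
Class II UMIs per 10000 UMIs of the cell (plus 0.1, log axis) by percentile of cells, for the subsets of GFPhi macrophages. The curve of Ccr2 macrophages, with a median of 407, lies above the others, whose medians run between 4.44 and 10.6.

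Macrophages were then split by 5 further lists of 8 markers. Resident macrophages were marked by genes such as Timd4, Lyve1 and Folr2, lipid-associated ones by genes such as Spp1, Gpnmb and Trem2, Ccr2 macrophages by genes such as Ccr2, Plac8 and Ly6c2, Gdf15 macrophages by Gdf15 with stress genes, and cycling ones by Mki67 and the like. Ccr2 is the chemokine receptor of monocytes recruited from blood. The Ccr2 list also held Il1b, Cytip, Itgal, Gpr132 and Tnip3. Like all lists here, it was chosen with earlier results of these data known, so its class II level describes and carries no test. The summed class II level was 41220 CPM in Ccr2 macrophages (123 cells), 11881 CPM in those with no subset (4153), 9520 CPM in Gdf15 macrophages (171), 5328 CPM in lipid-associated ones (2798), 4455 CPM in cycling ones (460) and 3061 CPM in resident ones (555). The median per cell also set the Ccr2 macrophages apart, at 407 per 10000 UMIs against 5.62 in resident ones, but lipid-associated and cycling cells, at 4.99 and 4.44, were then below the resident cells.

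Ccr2 macrophages exceeded resident ones in all 7 of 7 measured genes (11% of all genes measured; 31.7% lower), at a median ratio of 12.7 against 0.826 over all genes. Ciita reached 10 CPM in the Ccr2 cells alone. H2-Aa was at 9500 CPM in Ccr2 macrophages and 666 CPM in resident ones, a ratio of 14.3 (13.6–14.9). H2-Eb1 was at 8554 and 493 CPM, a ratio of 17.3 (16.5–18.3), and Cd74 at 16246 and 1275 CPM, a ratio of 12.7. Ciita was at 58.9 and 6.94 CPM, 8.48-fold (5.10–14.4). The editors differed less than the chains, with H2-DMa at 480 and 128 CPM, 3.75-fold (3.26–4.31), and H2-DMb1 at 524 and 72.1 CPM, 7.28-fold (6.21–8.54). The intervals of H2-DMa and of H2-Aa do not overlap.

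The other pathway lists had fewer genes past the limit. The counts below stand beside 11% of all genes higher and 31.7% lower in Ccr2 over resident macrophages. The lower calls among turnover and macrophage RNA genes were near or under that share. None of 5 measured Ciita partners, the RFX, NF-Y and CREB factors of the promoter module, passed 1.5-fold in either direction, with a median ratio of 1.11. Of 8 genes on the interferon gamma route, 3 were higher and 1 lower, with the receptor chains Ifngr1 and Ifngr2 at 1.59- and 1.75-fold and the kinase Jak2 at 2.21-fold among the higher. Of 6 invariant chain and antigen proteases, Ctss, the cathepsin that makes the last cut of the invariant chain, was at 1.89-fold (1.81–1.98), and 3 were lower, namely Ctsl at 0.554-fold, Ctsb at 0.357-fold and Ctsd at 0.315-fold. Of 5 costimulation genes measured, 2 were higher, Icosl at 3.37-fold and Cd274 at 2.80-fold, and of 3 turnover genes 0 were higher and 1 was lower, the ubiquitin ligase gene March8, at 0.522-fold (0.253–0.973). The macrophage RNA list, which holds C1qa, C1qb, C1qc, Apoe, Lyz2, Ctss, Fcer1g and Tyrobp, had 1 of 8 higher and 2 of 8 lower, and its sum was 39427 CPM in Ccr2 macrophages and 54021 CPM in resident ones.

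Against resident macrophages the other subsets stood closer. Gdf15 macrophages had 6 of 7 genes higher (9.47% of all genes), with a median ratio of 3.18 against 0.857 over all genes, and H2-DMa short of the limit at 1.44. Ciita again reached 10 CPM in the Gdf15 cells alone. Lipid-associated macrophages had 4 of 6 higher and 0 lower (7.85% and 42.2% of all genes), with H2-Aa at 1.90-fold (1.82–1.98) and H2-DMa at 0.858-fold (0.778–0.947). The median over all genes was 0.745 there, so that H2-DMa was below 1 as CPM but above that median. Cycling macrophages had 2 of 6 higher and 1 lower (17.2% and 29% of all genes), the lower being H2-DMa at 0.633-fold (0.560–0.717) against 0.899 over all genes. In each of these 3 subsets H2-DMa thus had the lowest ratio of the measured genes.

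The level was graded over the number of markers seen. With 0, 1, 2, 3, 4 and 5 of the Ccr2 markers seen, H2-Aa was at 603, 1187, 2268, 3969, 5813 and 6882 CPM over 2478, 2923, 1630, 805, 323 and 95 cells, higher at every step, while the median depth went up over these steps from 5914.5 to 8835 UMIs. The 6 cells with more Ccr2 markers are not given. By UMIs of Ccr2 alone, the summed level was 4849 CPM at 0 UMIs, 15156 CPM at 1, 21784 CPM at 2 and 28099 CPM at 3 or more, at median depths between 6637 and 7464.5 UMIs. With 0 to 5 and then 6 or more resident markers seen, H2-Aa was at 3522, 1440, 859, 574, 645, 700.5 and 467 CPM, lower at each of the first 3 steps and with no steady change after. With 0 to 5 and then 6 or more lipid-associated markers seen it was at 3663, 4157, 3726, 2862, 1783, 1401 and 1089 CPM, highest at 1 marker, while the median depth over these steps went up from 1279 to 11944 UMIs. Split by single genes, the 1174 cells with Ccr2 but none of Timd4, Lyve1 and Folr2 had H2-Aa at 6337 CPM, against 473 CPM in the 2177 cells with any of these 3 and no Ccr2.

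**Figure D4:**
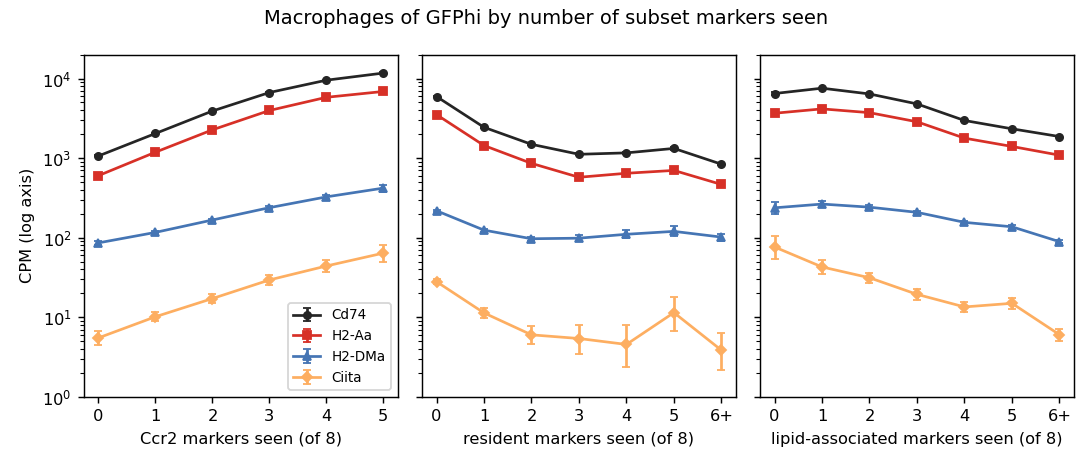
CPM (log axis) of Cd74, H2-Aa, H2-DMa and Ciita in GFPhi macrophages by the number of Ccr2, resident and lipid-associated markers seen in the cell, with 95% counting intervals. H2-Aa climbs from 603 CPM at 0 Ccr2 markers to 6882 CPM at 5, and is lower, at 467 CPM, in cells with 6 or more resident markers than at 3522 CPM in cells with none.

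Over all macrophages, those of GFPhi had less class II RNA than the few of GFPlo, but not within every subset. All 7 of 7 measured genes were lower in GFPhi (29.2% of all genes lower, 10.1% higher), with a median ratio of 0.438 against 0.849 over all genes. H2-Eb1 was at 1551 CPM in GFPhi and 4362 CPM in GFPlo, a ratio of 0.355 (0.338–0.374), H2-DMa at 149 and 247 CPM, 0.606-fold (0.493–0.753), and Ciita 0.469-fold (0.267–0.911). The subsets behind these cells differed: lipid-associated cells were 2798 of 8260 in GFPhi and 7 of 65 in GFPlo, and resident cells 555 and 3. In lipid-associated cells the summed level was 5328 CPM in GFPhi and 25683 CPM in GFPlo, and in cells of no subset 11881 and 25792 CPM. In Ccr2 cells it was 41220 CPM in GFPhi and 29719 CPM in GFPlo (123 and 8 cells), in cycling cells 4455 and 2978 CPM (460 and 8 cells), and in resident cells 3061 and 73.0 CPM, the last on 1 UMI. In lipid-associated cells 7 of 7 measured genes were lower in GFPhi (46.5% of all genes; 16.2% higher), Ciita among them on 1 UMI in GFPlo, and in cells of no subset 6 of 7 were (35.2%; 12.9% higher). In Ccr2 cells 1 of 8 was higher, Cd74, and 1 lower, H2-DMb2, on 1 UMI in GFPlo (15.9% and 44.9% of all genes). In cycling cells 3 of 6 were higher and 1 lower (21.9% and 30% of all genes). H2-Aa was at 0.196-fold in lipid-associated cells (0.174–0.221) and 0.451-fold in cells of no subset, but at 1.38-fold in Ccr2 cells (1.21–1.57) and 1.60-fold in cycling cells (1.26–2.06). The direction of H2-Aa thus differed between subsets, on few cells of GFPlo: 1 of the 8 cycling cells held 65.4% of their class II UMIs and 2 of the 8 Ccr2 cells at least 50%. The same limit holds where GFPhi was lower. In GFPlo 2 of the 7 lipid-associated cells held at least 50%, 1 of them 39.4%, as did 6 of the 39 cells of no subset. The complement genes C1qa, C1qb and C1qc, which define macrophages here, summed to 12930 CPM in GFPhi macrophages and 6495 CPM in GFPlo macrophages, and 6 of 8 genes of the macrophage RNA list were higher in GFPhi. The part of this in the class II values was not tested.

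Class II levels in non-immune cells were low, and a few cells decided them. In GFPlo 17 of 7583 fibroblasts held 50% of the class II UMIs of that class, as did 2 of 831 endothelial cells and 15 of 828 mesothelial cells. Cells with at least 2 of the leukocyte genes Ptprc, Coro1a, Cd53 and Laptm5 were therefore left out as well, a step added after the values had been seen. It removed 25 fibroblasts of GFPhi and 67 of GFPlo, 40 and 12 mesothelial cells and 5 and 2 endothelial cells. Without them fibroblasts were at 150 CPM in GFPhi and 54.4 CPM in GFPlo, and with them at 167 and 113 CPM. Mesothelial cells were at 172 and 141 CPM without and at 197 and 210 CPM with them, and endothelial cells at 210 and 120 CPM without and at 324 and 200 CPM with them. A gene is seen more readily in a deeper cell, and GFPhi cells were deeper. Median UMIs with all cells were 16507 in GFPhi and 8364 in GFPlo fibroblasts, 28349.5 and 14239 in mesothelial cells, and 6694 and 4190 in endothelial cells. The part of depth in this step was not tested.

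The ratios of GFPhi over GFPlo in these classes depended on the cells with leukocyte genes. In fibroblasts 2 of 4 measured genes were higher in GFPhi with all cells (1.52% of all genes; 2.35% lower). Without the leukocyte-gene cells 4 of 4 were (1.55% of all genes; 2.57% lower), of which H2-Aa and H2-Ab1 reached 10 CPM in GFPhi alone. H2-Aa was then at 32.2 CPM in GFPhi and 9.34 CPM in GFPlo, 3.45-fold (2.93–4.04). In mesothelial cells 0 of 5 were higher and 0 lower with all cells (2.38% and 4.2% of all genes), and 1 of 5 was higher without (2.47%, with 4.46% lower), and the median ratio was 0.851 with and 1.13 without. In endothelial cells 4 of 5 were higher with all cells (4.5% of all genes, with 7% lower) and 3 of 5 without (4.76%, with 6.69% lower), at median ratios of 1.59 and 1.74. Macrophage RNA was higher in GFPhi in each of these classes, with and without the leukocyte-gene cells. Without those cells the median class II ratio was also above 1 in each class, at 2.84 in fibroblasts. C1q genes, which fibroblasts are not known for, were at 159 CPM in fibroblasts of GFPhi and 1.13 CPM in those of GFPlo without the leukocyte-gene cells, and at 146 and 0.485 CPM in mesothelial cells. Over the non-immune classes compared, the macrophage RNA list had 7 or 8 of 8 genes higher in GFPhi and summed to between 870 and 5064 CPM in GFPhi and between 68.3 and 3707 CPM in GFPlo. Little of the sums of GFPlo was C1q: without the leukocyte-gene cells its fibroblasts had 992 CPM of the list and 1.13 CPM of C1q. The part of the macrophage RNA list in the class II values of GFPhi was not tested.

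Endothelial cells divided by vessel type. Endocardial cells line the chambers, and lymphatic endothelial cells drain the tissue. Within GFPlo, without leukocyte-gene cells, endocardial cells stood at 240 CPM of class II (218–264) over 407 cells and lymphatic cells at 18.6 CPM (12.3–26.8) over 223 cells. Of the endocardial cells 12 held 50% of the class II UMIs, and 1 held 22.8%. The 6 genes that reached 10 CPM did so in endocardial cells alone, so that their number says nothing of the difference. H2-Aa was at 55.9 CPM in endocardial and 5.97 CPM in lymphatic cells, 9.36-fold (4.74–21.1), and H2-DMb1 at 35.2 and 1.99 CPM, 17.7-fold (5.78–88.1). C1q genes were at 1.68 CPM in these endocardial cells and had 0 UMIs in the lymphatic cells. The whole macrophage RNA list summed to 3690 CPM in the endocardial and 68.3 CPM in the lymphatic cells. Of its 8 genes only 2 were measured, 1 higher and 1 lower in endocardial cells (20.9% and 26.8% of all genes). Most of the endocardial sum thus came from 1 gene, the higher of these 2, since the lower one cannot exceed the 68.3 CPM of the lymphatic list. The part of this list in the class II values was not tested. Of 7 measured genes on the interferon gamma route, 2 were higher and 1 lower in endocardial cells (20.9% and 26.8% of all genes). Their median ratio was 1.06 against 0.935 over all genes. The 2 higher were Irf1, a transcription factor that acts on the Ciita gene, at 3.0-fold (2.17–4.23), and Ifngr1 at 1.79-fold. The lower was Irf8, at 0.197-fold.

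Between the fractions, the direction in endocardial cells rested on 2 cells of GFPlo. With all cells the class II sum was at 333 CPM in GFPhi and 426 CPM in GFPlo, and 0 genes were higher and 2 of 6 lower in GFPhi (8.65% and 12.8% of all genes), at a median ratio of 0.800. Without the 2 cells with leukocyte genes, both of GFPlo, it was at 333 and 240 CPM, and 2 of 6 were higher and 0 lower (8.72% and 13.2% of all genes), at a median ratio of 1.29. H2-Aa was at 0.911-fold with those cells (0.636–1.28) and 1.42-fold without them (0.970–2.04), and Cd74 at 0.767-fold with (0.554–1.05) and 1.91-fold without (1.32–2.73). In lymphatic endothelial cells, where no cell was left out, class II was higher in GFPhi, but the 4 genes that reached 10 CPM did so in GFPhi alone, so that their calls were fixed by the limit. The levels there were low, with H2-Aa at 24.9 CPM in GFPhi and 5.97 CPM in GFPlo, 4.18-fold (1.85–10.3), and Cd74 at 73.7 and 3.98 CPM, 18.5-fold (8.06–52.3). The GFPhi lymphatic cells carried C1q genes at 214 CPM and the GFPlo ones had 0 UMIs. Per 100 H2-Aa UMIs, C1q stood at 859 in GFPhi lymphatic cells (551–1404) and at 675 in GFPhi macrophages.

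In GFPlo, where C1q was nearly absent from non-immune cells, mesothelial cells had more class II RNA than fibroblasts. Of 5 genes measured, H2-Aa, H2-Ab1 and H2-DMb1 reached 10 CPM in mesothelial cells alone, and the other two, H2-Eb1 and Cd74, were both higher (18.1% of all genes measured and 12.8% of those at 10 CPM in both). Mesothelial cells form the epicardial surface. H2-Aa was at 23.6 CPM in mesothelial cells and 9.34 CPM in fibroblasts, 2.53-fold (2.19–2.91), and H2-DMb1 at 15.0 and 4.40 CPM, 3.42-fold (2.83–4.11).

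**Figure D5:**
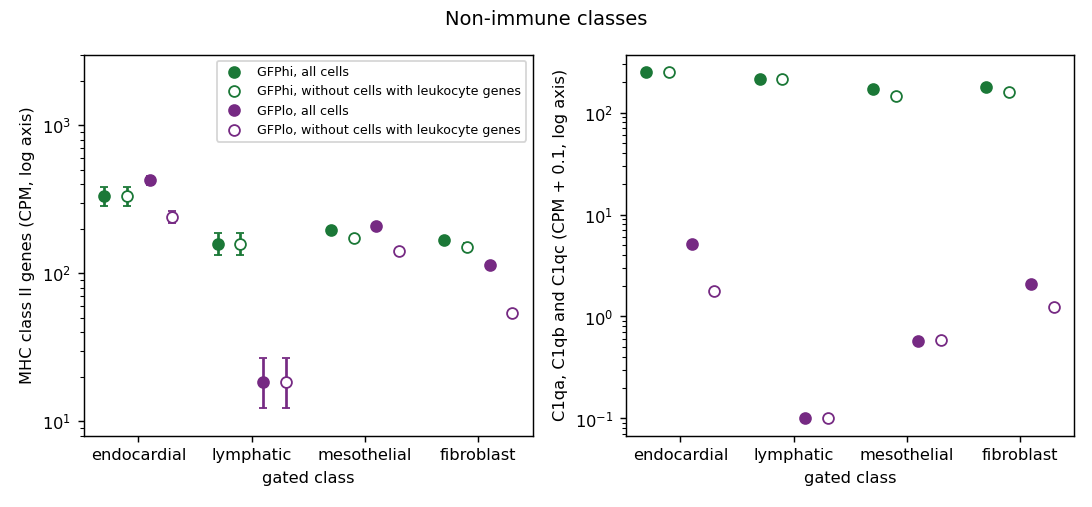
Summed CPM of the 10 genes (left) and CPM of C1qa, C1qb and C1qc plus 0.1 (right) in non-immune classes, for all cells (filled) and without cells that carry leukocyte genes (open). Within each class GFPhi is drawn to the left of GFPlo. The left panel has 95% counting intervals. Class II in GFPlo fibroblasts is at 54.4 CPM without those cells and 113 CPM with them, and C1q is over 100 CPM in GFPhi classes and at or under 5 CPM in GFPlo ones.

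The proportion of H2-DMb1 to H2-Aa was higher in fibroblasts, mesothelial cells and endocardial cells than in macrophages and type 1 dendritic cells, a comparison chosen after the values were seen. Per 100 H2-Aa UMIs, H2-DMb1 stood at 6.49 in GFPhi macrophages and 6.88 in GFPlo macrophages, at 7.91 and 8.37 in type 1 dendritic cells, and at 5.98 and 2.44 in B cells. Without leukocyte-gene cells it stood at 21.7 in GFPhi fibroblasts (15.3–30.2) and 47.1 in GFPlo fibroblasts (41.0–54.0), at 35.2 (28.7–43.0) and 63.7 (52.7–76.8) in mesothelial cells, and at 43.2 (23.8–75.5) and 63.0 (45.2–87.2) in endocardial cells. The intervals of these 3 non-immune classes lie above those of the macrophages of the same library. Lymphatic endothelial cells of GFPhi, at 13.6 (2.61–45.4, on 3 UMIs of H2-DMb1), overlapped the macrophages, and resident macrophages of GFPhi stood above macrophages as a whole, at 10.8 (9.51–12.3). In GFPhi the C1q genes stood at 492 per 100 H2-Aa UMIs in fibroblasts, 409 in mesothelial cells, 316 in endocardial cells and 675 in macrophages. In GFPlo they stood at 12 in fibroblasts, 2.05 in mesothelial cells, 3.0 in endocardial cells and 149 in macrophages.

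Across 15 class profiles of at least 20 cells, the genes with the profile most like the summed 10 genes were Fgd2 (Pearson r = 0.943), Pkib (0.931), Gm20513 (0.918), Ly86 (0.914), Ubl3 (0.913), Pld4 (0.909), Rnase6 (0.906), Fcgr2b (0.902), Cd83 (0.898) and Btk (0.898), of 6724 genes compared on log2(CPM + 1). The profiles share 2 libraries and differ in depth, so these values describe and carry no test. Gm20513 overlaps H2-Eb1 on the other strand, and its reads may be those of H2-Eb1. Among the 10 genes themselves, r with the sum was between 0.989 and 0.996 for the 4 chains, 0.959 for Ciita, 0.921 for H2-DMa, 0.844 for H2-DMb1, 0.821 for H2-DMb2, 0.737 for H2-Ob and 0.559 for H2-Oa, the sum being made mostly of the chains.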

How the data were processed

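The deposited matrices hold whole-number counts of UMIs per gene and barcode, per the file headers, made with a SeekOne droplet 3' kit per the labels' protocols. The submitters' processing notes name mm10. For the aligner, the counter and the way barcodes were called: not given in the sources used here. Cells with at least 300 genes, 500 UMIs and at most 20% mitochondrial UMIs were kept. Lineages and subsets were gated by lists of 8 markers. No doublet caller was run. Cells with 3 or more markers of 2 lineages were kept apart only where neither list had a lead of 2. UMIs were summed per class and library and divided by the class total (CPM). A gene was measured at 10 CPM in a class compared and 3 UMIs in all, and called at 1.5-fold with 0.5 added to each count.

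Intervals are exact 95% intervals for counting error only (Poisson for levels, Clopper-Pearson for shares, conditional binomial for ratios). A count of 0 allows up to 3 counts. For shares of cells, each cell was thinned to 1000 UMIs. The ratio step was tested on simulated data. Python 3.11.15, numpy 2.4.6, scipy 1.17.1 and pandas 2.3.3 were used.

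The genes and all lists were chosen with earlier results of these data known. Named are the 10 genes, pathway genes of at least 10 CPM, and the 10 genes of most similar profile. Over whole libraries, GFPhi over GFPlo, 0 of 5 measured Ciita partners, 4 of 8 genes of the interferon gamma route, 5 of 6 invariant chain and antigen proteases, 2 of 3 turnover genes, 4 of 4 costimulation genes and 8 of 8 macrophage RNA genes were higher, against 15.6% of all genes (31.2% lower), and 1 Ciita partner was lower. H2-Eb2, the only gene found of other class II loci, was not measured there. Alternatives covered the gates, filters, scaling and thinning. 1 gene of the interferon gamma route is not reported here by name.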

Additional observations from a re-analysis of the deposited data

Results flagged for a closer look

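H2-Eb1, the beta chain of the I-E molecule, differed between the fractions in opposite directions in different cells. Its ratio of GFPhi over GFPlo was 0.355 in macrophages (0.338–0.374) but 8.89 in lymphatic endothelial cells (3.36–29.6, on 26 and 5 UMIs). In endocardial cells it was 0.594 with all cells (0.389–0.881) and 1.15 without 2 GFPlo cells with leukocyte genes (0.731–1.76), so no direction is read there. Within macrophages it was 0.157 in lipid-associated cells and 0.355 in cells of no subset, but 1.45 in Ccr2 cells and 1.42 in cycling cells. With 1 library per fraction the difference between these cell types was not tested. C1q genes were at 12930 CPM in GFPhi macrophages and 6495 CPM in GFPlo macrophages, and at 214 CPM and 0 UMIs in lymphatic endothelial cells.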

How the results depend on the processing

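No paired analysis was possible because each fraction has 1 library. Of the values under other settings, 38 stayed within their spread or limit, 22 moved and 2 changed sign, and the whole-library count of 7 higher genes was 6 under a filter of 50 CPM. The macrophage share of class II UMIs in GFPhi (95.2%) was 94.7% at 4 markers, 96.2% at a lead of 1, 95.4% at a mitochondrial limit of 10%, 95.3% at 1000 UMIs or more and 95.3% without shared barcodes, and in GFPlo (12.3%) it was 14.4% at a lead of 1. The median log2 ratio of Ccr2 over resident macrophages (3.67) was 3.51 at a lead of 1, 3.84 with median-of-ratios scaling, 3.07 with no filter beyond 3 UMIs, 3.47 with every cell scaled to the same total and 3.72 for Ccr2 against Timd4, Lyve1 or Folr2 alone. For GFPhi over GFPlo, the endothelial median (0.67) was 1.06 at a lead of 1. The mesothelial median (−0.23) was −0.38 at a lead of 1, −0.13 with median-of-ratios scaling, 0.076 with a 50 CPM filter and 0.17 without leukocyte-gene cells, so that its sign depends on these settings. The fibroblast median (0.55) was 0.72 at 4 markers, 1.17 at a lead of 1, 0.86 with a 50 CPM filter, 0.31 with no filter beyond 3 UMIs, 1.01 with every cell scaled to the same total and 1.51 without leukocyte-gene cells. The share of GFPhi macrophages with an H2-Aa UMI (55.1%) was 56.5% at a mitochondrial limit of 10% and 33.5% when thinned to 1000 UMIs. Causes were not tested. Few UMIs limit Ciita, H2-DMb2, H2-Oa and H2-Ob, and few cells limit the GFPhi dendritic cells and B cells.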
